A study of Homo sapiens with 3 samples.

Results

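The BCL2 family decides whether a cell goes through mitochondrial apoptosis, and 10 of its genes were followed in KYSE510 cells, an established line of human esophageal squamous cell carcinoma. The members were chosen by name: 6 BH3-only genes (BMF, BBC3, PMAIP1, BCL2L11, BID and BIK), 2 pro-survival genes (MCL1 and BCL2L1) and 2 effector genes (BAX and BAK1). Each was found once by its Entrez identifier among the 19266 genes of the tables. The control cells carried a scrambled short hairpin RNA, and the other groups carried hairpin 1 (sh1) or hairpin 2 (sh2) against the transcript TCONS_02256997. All 3 groups, the control included, were exposed to lentivirus for 24 h and then to 4 µM puromycin for 48 h. The study screened for potential targets of that transcript, whose own level was not analysed here.

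There was 1 sample per group, each with 3 numbered tables of expected counts from total RNA, which are called libraries here. Whether the 3 come from different cultures, different preparations of one RNA or reruns is not in the labels. The p-values therefore reflect the scatter among the 3 tables alone, possibly only technical, and no difference has a replicate check between cultures. The libraries held 14660821 to 16092417 expected counts, and a member had between 702 and 32616 counts summed over the 3 libraries of a group. Within a sample no pair of libraries was identical, and their chi-square per gene was 1.41 to 2.44. All 10 squamous epithelial markers were detected in control, from 1.7 TPM (PKP1) to 4248 TPM (KRT17). Of 12 markers of blood, endothelial, fibroblast and other cells, 4 had no count in any library and the highest, COL1A1, stood at 20.7 TPM in control.

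Pro-survival proteins such as MCL1 and BCL-xL hold the effectors BAX and BAK1 in check on the mitochondrial outer membrane. BH3-only proteins sense damage, lost attachment or missing growth signals, bind the pro-survival proteins or the effectors, and so free BAX and BAK1 to form pores that release cytochrome c. Much of this control acts on the proteins, through phosphorylation, cleavage and rapid turnover, which RNA levels do not show.

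On the scale of TPM, which corrects for transcript length and so allows genes to be compared, MCL1 was the most abundant member in control, at 438 ± 5.32 TPM (SD, n = 3 libraries, as throughout). BAX followed at 132.5 ± 4.15 TPM and PMAIP1 at 119 ± 9.1 TPM, and their libraries overlapped. BCL2L1 stood at 104.5 ± 2.49 TPM, BAK1 at 82.8 ± 3.77 and BID at 71.4 ± 2.27. BIK (53.2 ± 0.998 TPM) and BBC3 (49.9 ± 2.86 TPM) overlapped each other. BCL2L11 (24.3 ± 2.6 TPM) and BMF (8.27 ± 0.358 TPM) were lowest. With sh1 the order changed: BID (83.7 ± 2.54 TPM) came next after MCL1 and BAX, and BAK1 (40.9 ± 0.433 TPM) fell below BCL2L11 (50 ± 0.988 TPM). With sh2, MCL1, BAX and BCL2L1 were the 3 highest. BMF stayed the lowest in each group, although with sh1 its libraries (30.7 to 34 TPM) overlapped those of BBC3 (32.6 to 34.8 TPM).

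**Figure D1:**
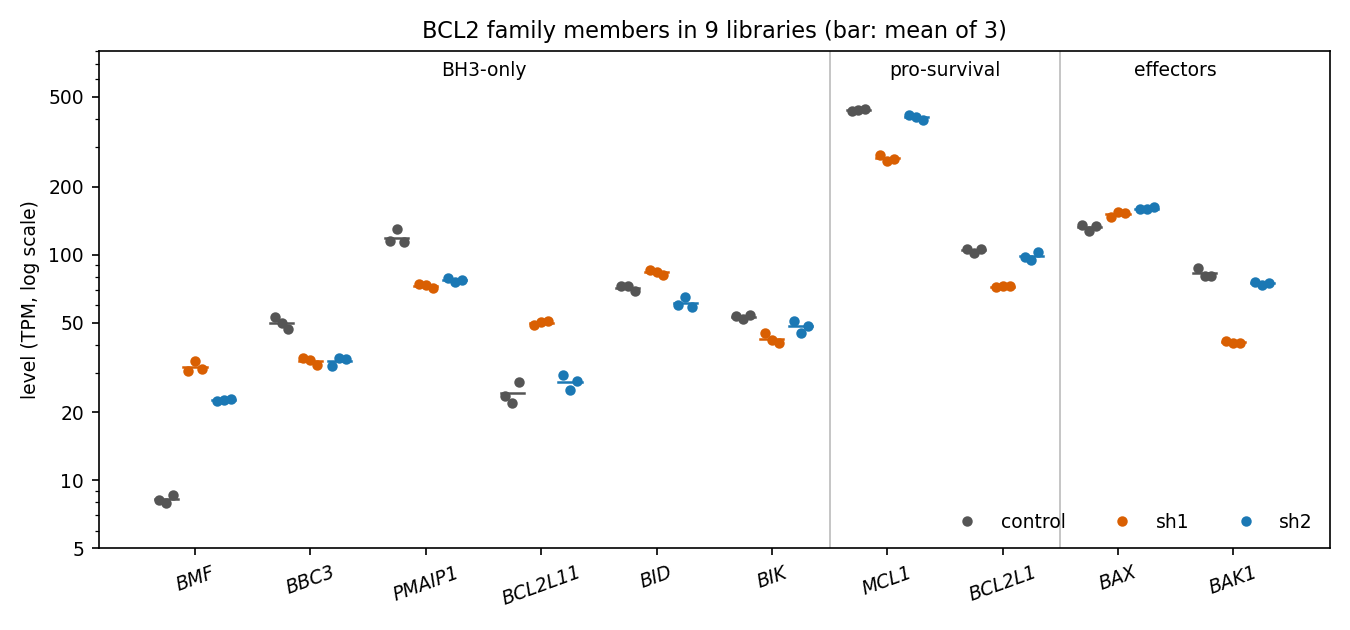
Level of the 10 members in each of the 9 libraries, in TPM on a log scale. Points are libraries, bars are means of 3, and colours are the groups. BMF averages 8.27 TPM in the control libraries, 31.9 in those of sh1 and 22.7 in those of sh2, while MCL1 and BAK1 are low with sh1 alone.

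With sh1 all 10 members passed the test against control, 4 higher and 6 lower. Of all 13580 genes tested, 69.3% passed it, 34.7% higher and 34.6% lower, so that a pass by itself says little about a member. Passing means an adjusted p below 0.05 (edgeR's quasi-likelihood test, Benjamini-Hochberg over all tested genes). Passing at 1.5-fold or more were 5 members (BMF and BCL2L11 higher, BAK1, MCL1 and PMAIP1 lower), against 24.1% of all genes (11.3% higher and 12.8% lower). The libraries of the groups did not overlap for 10 of the 10, against 71.9% of all genes. The median size of a member's change, on the log2 scale and without sign, was 0.60, against 0.32 over all genes. With sh2, 6 members passed, 3 higher and 3 lower, against 68.5% of all genes (34.2% higher and 34.3% lower). Only BMF did so at 1.5-fold or more, against 22.2% of all genes (9.74% higher); without control library 1 or 3, PMAIP1 also passed and the count was 2. The libraries did not overlap for 8 members, all but BIK and BCL2L1, against 70.3% of all genes. The median size of change with sh2 was 0.21 for the members and 0.30 over all genes. Both hairpins were compared with the same control libraries, so the 2 comparisons are not independent. The members were chosen with earlier results of these data known, so setting them against all genes is not a blind comparison.

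BMF, a BH3-only protein held on the cytoskeleton until cells lose attachment or growth support, had the greatest change of the 10 with each hairpin. Its control libraries held 15.6, 14.8 and 15.8 CPM (the count as a share of the scaled library total). With sh1 they held 58.2, 65.2 and 59.5 CPM, and with sh2 43, 44.3 and 44.8 CPM. The 3 groups do not overlap, with sh1 highest and control lowest. BMF rose 3.96-fold with sh1 (log2 1.98 ± 0.059 SE, adjusted p = 9.34e-23) and 2.85-fold with sh2 (1.51 ± 0.062, adjusted p = 3.82e-19), both by edgeR's quasi-likelihood test. A change of that size or more was seen in 1.37% of tested genes with sh1 and 2.69% with sh2. For BMF as for every other member, a shift in the mix of cells and a change in RNA per cell cannot be told apart in bulk RNA such as this.

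BCL2L11 encodes BIM, a BH3-only protein that binds all pro-survival members and can also engage BAX and BAK1 directly. It held 43.6, 44.8 and 49.7 CPM in control, 102.6, 105.3 and 104.9 CPM with sh1, and 59.3, 52.5 and 54.7 CPM with sh2. Every sh1 library lies above every other library, and the sh2 libraries lie just above control. BCL2L11 rose 2.26-fold with sh1 (log2 1.18 ± 0.047, adjusted p = 1.05e-19) and 1.21-fold with sh2 (0.27 ± 0.051, adjusted p = 2.86e-05; edgeR). The direct contrast was 1.88-fold in favour of sh1 (0.91 ± 0.045, adjusted p = 2.84e-17, edgeR). The length of the 18 BCL2L11 transcripts, weighted by the authors' isoform estimates, was 4497 to 5032 bases in control and 4939 to 5069 with sh1, so the groups overlapped in that respect.

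BBC3 and PMAIP1 moved the other way. BBC3 encodes PUMA, a BH3-only protein that binds all pro-survival members, and PMAIP1 encodes NOXA, which binds chiefly MCL1. BBC3 held 39.4, 35.9 and 34.1 CPM in control, 25.4, 25.5 and 24.1 CPM with sh1, and 24.3, 26.6 and 26.5 CPM with sh2. PMAIP1 held 90.4, 100.8 and 87.5 CPM in control, 59.2, 59.9 and 57.3 CPM with sh1, and 63.9, 61.9 and 63.2 CPM with sh2. For each of these genes all control libraries lie above all hairpin libraries.

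BBC3 fell by 0.55 ± 0.062 on the log2 scale with sh1 and by 0.50 ± 0.060 with sh2. PMAIP1 fell by 0.66 ± 0.046 and by 0.56 ± 0.044. The largest adjusted p among these falls was 1.55e-08 (edgeR, BBC3 with sh2). Neither gene passed the test between the hairpins: BBC3 differed by -0.05 ± 0.065 (adjusted p = 0.544) and PMAIP1 by -0.10 ± 0.048 (adjusted p = 0.0663, edgeR, sh1 minus sh2). With only the libraries of the hairpins in the fit PMAIP1 did pass, at an adjusted p of 0.0479 by edgeR. Among the 23 tested genes listed with the family, BBC3 and PMAIP1 were each other's nearest in the plane of the log2 changes, 0.13 apart over the 3 samples.

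The remaining BH3-only genes changed less. BID is cut by caspase 8 and carries the death receptor signal to mitochondria. It held 65.1, 64 and 60.7 CPM in control, 77.6, 77.1 and 73.6 CPM with sh1, and 55.3, 60.5 and 54.6 CPM with sh2, with sh1 highest, sh2 lowest and no overlap. BID rose by 0.27 ± 0.044 with sh1 (adjusted p = 3.55e-06) and fell by 0.16 ± 0.045 with sh2 (adjusted p = 0.00323), and was the only member that passed in opposite directions. The hairpins differed by 0.42 ± 0.044 for BID (adjusted p = 9.41e-10, edgeR's quasi-likelihood test for these 3 values).

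BIK, a BH3-only protein of the endoplasmic reticulum, held 20.6, 19.6 and 20.2 CPM in control, 17.4, 16.6 and 15.9 CPM with sh1, and 20, 17.9 and 19.3 CPM with sh2. It fell by 0.28 ± 0.071 with sh1 (adjusted p = 0.00108, edgeR). With sh2 BIK had a change of -0.08 ± 0.068 that did not pass (adjusted p = 0.317, edgeR), and those libraries overlap control. Tested against a change of 1.2-fold in place of none, BIK, BID and BAX with sh1, and BCL2L11 and BID with sh2, no longer passed (adjusted p = 0.376 to 1, edgeR glmTreat).

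Promoter letters are shown for BMF and BCL2L11, which rose, for BBC3 and PMAIP1, which fell together, and for BAX, which rose slightly with both hairpins. They are the 250 bases before the RefSeq start on GRCh38.p14, on the strand of the gene and 5′ to 3′. They come from RefSeq's table and not from hg19, the build named in the submitters' processing notes. Of the 10 members 8 had an entry, and MCL1 and BIK had none. Where a gene has several windows the one printed is the first listed. Capitals mark motif matches on either strand: in BMF the GC box GGGCGG, in BCL2L11 the FOXO motif GTAAACA, in BBC3 the E-box CACGTG and the AP-1 motif TGANTCA, in PMAIP1 the cyclic AMP response half-site ACGTCA, and in BAX the E-box.
BMF, chr15:40108880-40109129, minus strand: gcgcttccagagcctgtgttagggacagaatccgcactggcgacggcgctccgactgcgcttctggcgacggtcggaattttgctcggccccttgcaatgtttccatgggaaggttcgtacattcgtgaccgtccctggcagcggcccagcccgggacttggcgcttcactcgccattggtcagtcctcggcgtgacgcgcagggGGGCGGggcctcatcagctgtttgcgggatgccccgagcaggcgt
BCL2L11, chr2:111120664-111120913, plus strand: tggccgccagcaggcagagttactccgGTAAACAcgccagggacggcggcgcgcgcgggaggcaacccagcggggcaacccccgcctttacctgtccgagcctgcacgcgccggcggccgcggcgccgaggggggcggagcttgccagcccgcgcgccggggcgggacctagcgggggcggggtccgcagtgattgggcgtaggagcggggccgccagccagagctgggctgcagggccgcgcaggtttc
BBC3, chr19:47232668-47232917, minus strand: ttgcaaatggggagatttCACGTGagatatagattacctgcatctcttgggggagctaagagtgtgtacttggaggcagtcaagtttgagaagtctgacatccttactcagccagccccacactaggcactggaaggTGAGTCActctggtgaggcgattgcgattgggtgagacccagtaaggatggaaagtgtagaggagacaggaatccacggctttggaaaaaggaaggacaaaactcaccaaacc
PMAIP1, chr18:59899746-59899995, plus strand: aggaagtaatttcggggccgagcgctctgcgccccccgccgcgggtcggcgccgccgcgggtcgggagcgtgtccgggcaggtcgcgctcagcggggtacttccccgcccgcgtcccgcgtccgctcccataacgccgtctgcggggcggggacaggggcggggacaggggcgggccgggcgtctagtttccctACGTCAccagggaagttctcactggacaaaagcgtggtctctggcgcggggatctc
BAX, chr19:48954625-48954874, plus strand: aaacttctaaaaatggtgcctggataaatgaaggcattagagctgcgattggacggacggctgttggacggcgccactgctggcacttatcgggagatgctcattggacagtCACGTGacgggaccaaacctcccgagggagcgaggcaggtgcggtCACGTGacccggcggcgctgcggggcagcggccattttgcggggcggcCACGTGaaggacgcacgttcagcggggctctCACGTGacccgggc

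In the BAX window the E-box letters occur 4 times, and 7.26% of all 35116 windows of 300 bases in the table hold them at least once. The FOXO letters of the BCL2L11 window are in 3.42% of windows, the AP-1 letters of the BBC3 window in 7.71%, and the half-site of the PMAIP1 window in 7.98%. The GC box is in 45% of windows, and it is marked for BMF alone, although its letters also stand, in lower case, 4 times in the printed stretch of PMAIP1, 3 times in that of BCL2L11 and once in that of BAX. The C/EBP-ATF composite TGATGNAA (3.62% of windows) and the E2F letters TTTCCCGC or TTTGGCGC (2.27%) were searched too and matched no window of a member, and the windows of BMF held none of the motifs other than the GC box. None of the marked matches overlaps another. These matches describe only the letters of the window, and binding was not measured. The motifs were chosen after the changes of the members were known.

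Both pro-survival members fell with sh1, neither passed with sh2, and both differed between the hairpins. MCL1, a short-lived protein that binds BAK1, BIM and NOXA, held 712, 701 and 706 CPM in control. With sh1 it held 453, 440 and 442 CPM, and with sh2 687.5, 690.5 and 674 CPM. The sh1 libraries stand far below the rest, and the sh2 libraries lie a little below control. MCL1 fell by 0.67 ± 0.025 with sh1 (1.59-fold lower, adjusted p = 4.33e-20). Its change with sh2 was -0.05 ± 0.025 (adjusted p = 0.097), which passed narrowly without the filter on low counts (adjusted p = 0.0493). The contrast between the hairpins was -0.62 ± 0.025 for MCL1 (adjusted p = 3.43e-19, edgeR's quasi-likelihood test for all values of this gene).

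BCL2L1, which encodes BCL-xL and the short form BCL-xS that the gene total does not separate, held 109.6, 102.6 and 105.6 CPM in control. It held 74.7, 76.3 and 75.8 CPM with sh1 and 102.1, 100.8 and 109.1 CPM with sh2. Control and sh2 overlap, and sh1 lies below both. BCL2L1 fell by 0.49 ± 0.039 with sh1 (adjusted p = 3.44e-12) and had -0.03 ± 0.037 with sh2 (adjusted p = 0.525). Between the hairpins it differed by -0.46 ± 0.039 (adjusted p = 1.24e-11, edgeR for these 3 values). MCL1 held 80.7 ± 0.397% of the summed TPM of this pair in control, 78.7 ± 0.498% with sh1 and 80.5 ± 0.943% with sh2.

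The effectors did not move as a pair. BAK1, which sits in the mitochondrial outer membrane, held 77.9, 70.8 and 70.6 CPM in control, 37.3, 37.3 and 37.1 CPM with sh1, and 69.2, 68.3 and 69.4 CPM with sh2. BAK1 fell by 0.97 ± 0.047 with sh1, or 1.96-fold (adjusted p = 1.36e-17, edgeR). With sh2 it had a change of -0.08 ± 0.041 that did not pass (adjusted p = 0.0726), although the libraries do not overlap. Without control library 2 or 3 BAK1 passed with sh2, at -0.11 in both cases (adjusted p = 0.0345 and 0.0286, edgeR). The hairpins differed by -0.89 ± 0.047 for BAK1 (adjusted p = 1.63e-16, edgeR). Reads from near-identical pseudogene copies of BAK1 could be counted with it.

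BAX, which moves from the cytosol to mitochondria when activated, held 45.3, 42.7 and 43.7 CPM in control, 51.3, 54.1 and 52.5 CPM with sh1, and 56.4, 57.6 and 58.2 CPM with sh2. The groups do not overlap, with control lowest and sh2 highest. BAX rose by 0.26 ± 0.046 with sh1 (adjusted p = 8.2e-06) and by 0.39 ± 0.044 with sh2 (adjusted p = 5.5e-09, edgeR). The ratio of BAX to BAK1 in TPM was 1.6 ± 0.054 in control, 3.71 ± 0.148 with sh1 and 2.14 ± 0.035 with sh2.

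Between the hairpins, 8 members passed the test (BCL2L11, BID and BMF higher with sh1, and BAK1, BAX, BCL2L1, BIK and MCL1 lower), against 69.8% of all genes (34.2% higher and 35.6% lower). At 1.5-fold or more they were BCL2L11, BAK1 and MCL1, 3 of 10, against 23.3% of all genes (12% higher and 11.3% lower). None reached 2-fold, against 8.28% of all genes. The libraries of the hairpins did not overlap for 9 members, all but BBC3, against 71.9% of all genes. The smallest of these differences were fragile. BAX (-0.13 ± 0.043) lost the call without sh1 library 1 (adjusted p = 0.0624), and BIK (-0.20 ± 0.072) lost it without sh1 library 3 or sh2 library 1 (adjusted p = 0.0794 and 0.0727, edgeR). DESeq2 called neither (adjusted p = 0.0551 for BAX and 0.0711 for BIK).

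Summed over the BH3-only genes among the 10 members, this class held 326 ± 7.7 TPM in control, 315 ± 6.69 with sh1 and 270 ± 2.78 with sh2. The sum hid opposite shifts. BMF and BCL2L11 together made up 10 ± 1.14% of it in control, 26 ± 0.967% with sh1 and 18.5 ± 0.605% with sh2. BBC3 and PMAIP1 together held 51.8 ± 1.76%, 33.9 ± 0.197% and 41 ± 0.472% in the same order. With sh2 BMF averaged 22.7 TPM against 8.27 in control. The BCL2L11 libraries overlapped in TPM, at 22.1 to 27.2 in control and 25.1 to 29.4 with sh2. The pro-survival pair held 542 ± 6.15 TPM in control, 340 ± 7.11 with sh1 and 504 ± 6.39 with sh2, and the effectors 215 ± 7.26, 192 ± 4.03 and 235 ± 2.08. The ratio of BH3-only to pro-survival TPM was 0.602 ± 0.021 in control, 0.926 ± 0.025 with sh1 and 0.537 ± 0.0019 with sh2. The sh1 libraries lie above control in this ratio and the sh2 libraries below it. Effectors over pro-survival members stood at 0.397 ± 0.014, 0.566 ± 0.023 and 0.466 ± 0.0084 in the same order. These sums are descriptions with no test, and they count RNA, not protein. They cover the 10 members only and leave out, among others, the BH3-only gene BAD (50.8 TPM in control) and the pro-survival gene BCL2L2 (43.4 TPM in control). Between groups they also carry the scale of TPM. With sh2 the pro-survival sum was 0.929 of control in TPM. In the edgeR fit MCL1 and BCL2L1 were at 0.968 and 0.981 of control with sh2, and neither passed. Sums of FPKM stood higher against control, as given in the last section. Shares and ratios of members within a library do not depend on this scale. The gene pairs and the ratios, that of BAX to BAK1 included, were chosen after the values were seen. Markers moved beside them: the 10 squamous markers summed to 8207 to 8273 TPM in the control libraries, 4882 to 4968 in those of sh1 and 6706 to 6872 in those of sh2. KRT17 was the largest part of this squamous sum, with means of 4248, 2681 and 3923 TPM in the same order. With sh1 7 of the 10 fell, 1 rose (SOX2, 2.39-fold) and 2 did not pass. With sh2 6 fell, 3 rose (SOX2 1.67-fold, KRT6A 1.45-fold and PERP 1.06-fold) and 1 did not pass. Of all tested genes 34.6% fell and 34.7% rose with sh1, and 34.3% fell and 34.2% rose with sh2. The 12 markers of other cells summed to 24.4 to 25.6, 26.6 to 29.7 and 30.7 to 33 TPM. Most of that sum was COL1A1, with means of 20.7, 22.4 and 27.2 TPM, which rose with both hairpins. Of the other 3 tested, VWF fell 1.58-fold with sh1 and 2.43-fold with sh2, PTPRC rose 1.55-fold with sh1 and did not pass with sh2, and PECAM1 passed with neither. The defining markers ALB, TTR and INS were at 0 in all libraries. The part of these markers in the result was not tested.

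**Figure D2:**
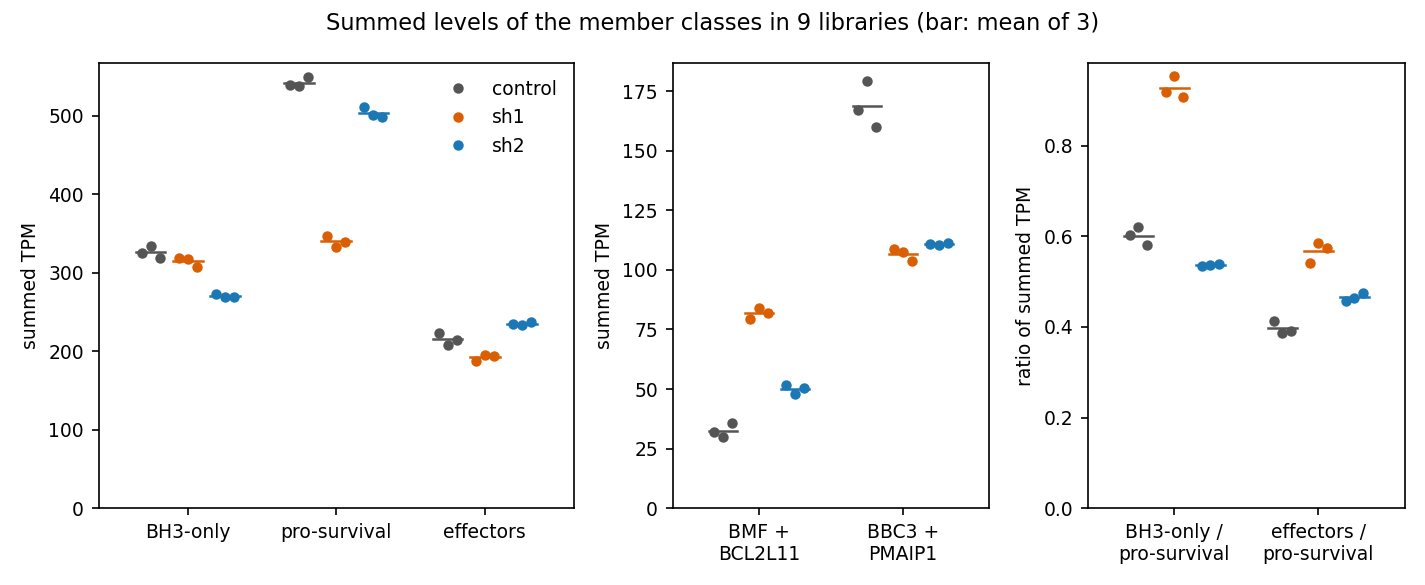
Summed TPM of BH3-only, pro-survival and effector members (left), of BMF with BCL2L11 and BBC3 with PMAIP1 (middle), and ratios of the class sums (right), all on axes from 0. Points are the 9 libraries and bars the means of 3; the pro-survival sum is low with sh1 (340 TPM against 542 in control), and the ratio of BH3-only to pro-survival members is high there (0.926 against 0.602).

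Beyond the 10 members, 13 of 14 further genes listed with the family had enough counts to be tested, and BCL2L10 did not. BNIP2 is among the 14 as a binding partner of BCL2 and is not itself a family member. With sh1 5 rose, 7 fell and 1 did not pass, and with sh2 3 rose, 4 fell and 6 did not pass. Of all tested genes 69.3% passed with sh1 and 68.5% with sh2. Their median log2 changes were -0.12 and -0.04, against 0.01 over all genes with each hairpin. HRK, a BH3-only gene known from neurons, fell by 1.18 ± 0.139 with sh1 and by 1.62 ± 0.145 with sh2, with 7.74 to 8.52 CPM in the control libraries, 3.19 to 4.21 CPM in those of sh1 and 2.3 to 2.94 CPM in those of sh2. BNIP3, a mitophagy receptor induced by low oxygen, rose by 0.71 ± 0.048 and 1.14 ± 0.045. BNIP3L, its relative, rose by 0.27 ± 0.036 with sh1 and had -0.04 ± 0.037 with sh2.

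The further pro-survival genes BCL2A1, BCL2L2 and BCL2 all fell with sh1, and only BCL2 also fell with sh2. BCL2A1, a target of NF-kB, had 135 counts over the control libraries, 17 with sh1 and 114 with sh2. It fell by 2.92 ± 0.315 with sh1 (adjusted p = 1.63e-09, edgeR) and had -0.31 ± 0.209 with sh2 (adjusted p = 0.193, edgeR), with few counts behind the sh1 level. BCL2L2, which encodes BCL-w and shares exons with a readthrough gene, fell by 0.52 ± 0.047 with sh1 and had -0.02 ± 0.043 with sh2. It was the nearest family gene to both BCL2L1 (0.03 apart) and MCL1 (0.15 apart) in the plane of log2 changes. BCL2 itself was scarce, at 3.9 to 5.01 CPM in control, and fell by 0.82 ± 0.175 and 0.88 ± 0.173.

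Among the other listed genes, BOK, an effector-like gene, rose by 0.37 ± 0.064 with sh1 and fell by 0.28 ± 0.070 with sh2, and these differed (0.66 ± 0.066, adjusted p = 4.72e-10, edgeR). BAD, a BH3-only protein controlled by phosphorylation, rose by 0.19 ± 0.069 with sh1 and had 0.10 ± 0.069 with sh2. BCL2L12 rose by 0.19 ± 0.045 and 0.27 ± 0.044, BCL2L13 fell by 0.49 ± 0.034 and 0.33 ± 0.033, and BNIP2 fell by 0.12 ± 0.037 with sh1 and had -0.05 ± 0.036 with sh2. BCL2L14, at a few CPM, fell by 0.44 ± 0.187 with sh1 and rose by 0.48 ± 0.162 with sh2, and BCL2L15 passed with neither (0.10 ± 0.161 and -0.02 ± 0.161). The largest adjusted p of a call among these 13 genes was 0.0375 (edgeR, BCL2L14 with sh1).

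**Figure D3:**
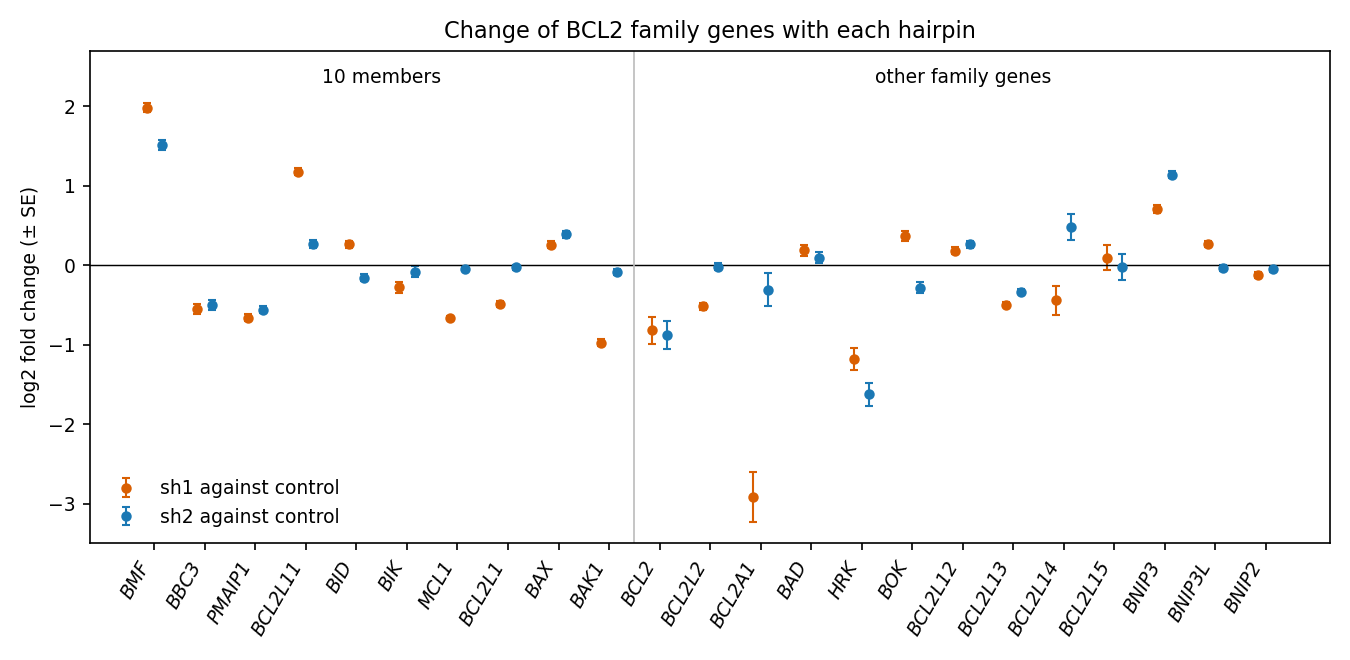
Log2 fold change of the 10 members and of 13 further genes listed with the family, with sh1 and with sh2 against control. Points are fitted values and bars are SE from edgeR's fit. BMF is the highest with each hairpin (1.98 and 1.51), and BCL2A1 with sh1 is the lowest (-2.92) with the widest bar.

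The counts for the pathway lists that follow stand beside a background of 34.7% of all tested genes higher and 34.6% lower with sh1, and 34.2% higher and 34.3% lower with sh2. The steps after the mitochondria were read from a list of 13 apoptosome and caspase genes. With sh1 7 rose and 6 fell, and with sh2 3 rose, 5 fell and 5 did not pass, with median log2 changes of 0.20 and 0.01. APAF1, the scaffold that assembles with cytochrome c, rose by 0.81 ± 0.051 and 1.18 ± 0.048. CASP9, the caspase it activates, fell by 0.95 ± 0.075 and 0.74 ± 0.072, and ENDOG, a mitochondrial nuclease, fell by 0.37 ± 0.112 and 0.97 ± 0.120. Of 7 inhibitor of apoptosis genes, 2 rose and 3 fell with sh1, and 5 rose and 1 fell with sh2. BIRC5 (survivin, which also acts in mitosis) rose by 0.53 ± 0.048 and 0.55 ± 0.048, and NAIP, whose locus holds near-identical copies, by 0.42 ± 0.129 and 0.31 ± 0.129. BIRC2, the ubiquitin ligase cIAP1, fell by 0.45 ± 0.033 and 0.24 ± 0.033.

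The death receptor list, the route that reaches the family through BID, had 15 of 16 genes tested. With sh1 3 rose and 8 fell, and with sh2 4 rose and 5 fell, with medians of -0.14 and 0.04. TNFRSF21 fell by 1.80 ± 0.034 with sh2 and had -0.03 ± 0.030 with sh1. TNFRSF10B, a receptor for TRAIL, fell by 0.51 ± 0.035 and 0.58 ± 0.034. TNFRSF10D, a decoy for the same ligand, rose by 0.92 ± 0.089 with sh1 and had 0.15 ± 0.098 with sh2.

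Of 12 transcription factors known to act on BH3-only genes, 2 rose and 9 fell with sh1, and 2 rose and 8 fell with sh2; the medians were -0.60 and -0.47. Of all tested genes 34.6% fell with sh1 and 34.3% with sh2, and the medians over all genes were 0.01 with each hairpin. DDIT3 (CHOP) fell by 2.06 ± 0.079 and 2.00 ± 0.076, ATF3 by 2.02 ± 0.040 and 1.38 ± 0.037, and E2F1 rose by 1.56 ± 0.048 and 1.05 ± 0.050. The FOXO genes of the list were singled out after their values were seen, because FOXO factors are known regulators of BCL2L11. FOXO1 fell by 0.55 ± 0.069 and 0.34 ± 0.066, and FOXO3 by 0.40 ± 0.033 and 0.09 ± 0.031. FOXO4 fell by 0.64 ± 0.172 with sh1 and had -0.01 ± 0.155 with sh2, which did not pass.

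A last list held 13 genes for turnover or binding partners of the members, of which 8 rose and 3 fell with sh1, and 8 rose and 5 fell with sh2. VDAC1, a channel of the outer membrane, fell by 1.503 ± 0.032 and 0.76 ± 0.030, and VDAC3 rose by 0.30 ± 0.037 and 0.61 ± 0.036. DYNLL1, the dynein light chain that binds BIM, rose by 0.34 ± 0.044 and 0.61 ± 0.043. DYNLL2, the light chain that binds BMF, was singled out after its values were seen: it rose by 0.59 ± 0.038 with sh1 and fell by 1.47 ± 0.048 with sh2. The largest adjusted p of a call among the genes named for these 5 lists was 0.0326 (edgeR, NAIP with sh2).

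**Figure D4:**
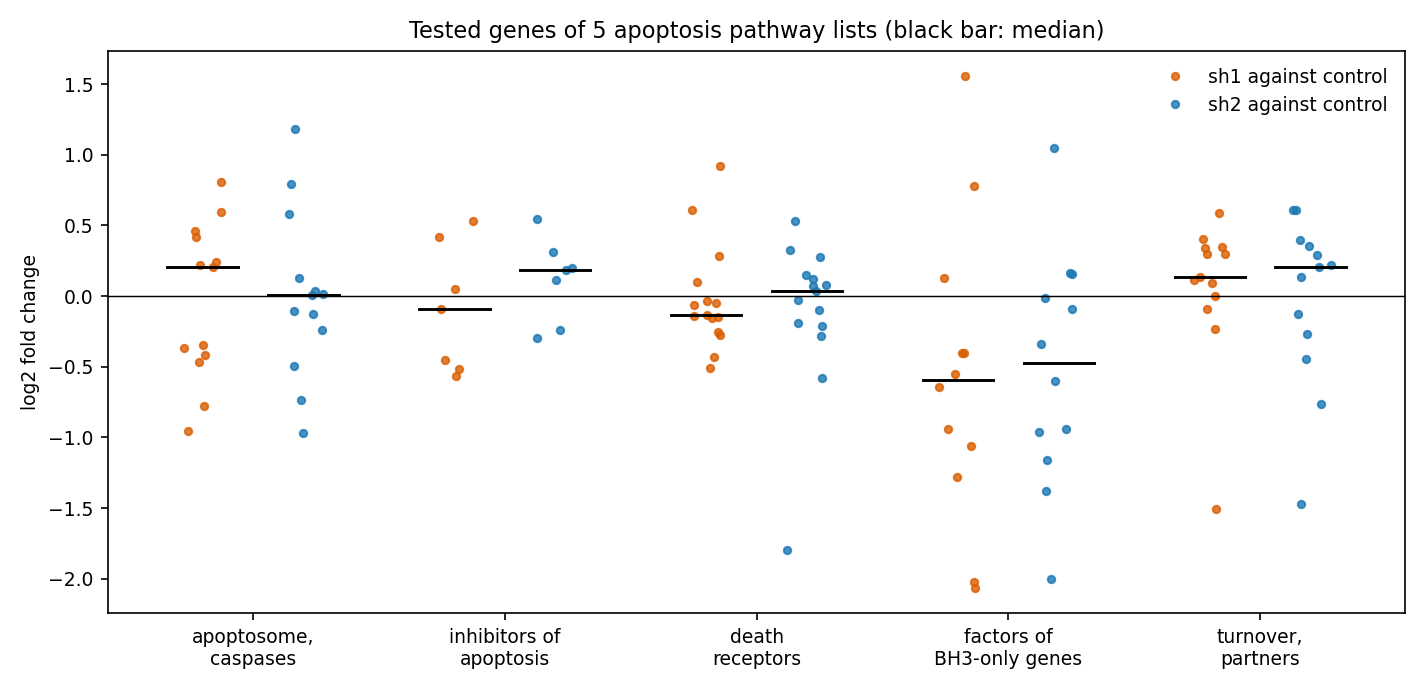
Log2 fold change of every tested gene in 5 apoptosis pathway lists with sh1 and sh2 against control; each point is a gene, spread sideways for legibility, and black bars are medians. The transcription factor list has the lowest medians (-0.60 and -0.47), and the other lists have medians between -0.14 and 0.21.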

How the data were processed

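Total RNA from 3 samples of KYSE510 cells was sequenced on the BGISEQ-500 per the labels' protocols, and the values were deposited as 3 gene tables per sample. Without roles, the build hg19 and the tools RSEM 1.2.12, HISAT2 2.0.4, DESeq2 1.4.5 and Bowtie2 2.2.5 are listed in the submitters' processing notes. Per the file headers, the authors' tables give an expected count, TPM, FPKM and an isoform-weighted length per Entrez gene; the sources used here do not say whether counting used strand. The 9 columns of a deposited FPKM table of the whole series were not used.

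Symbols came from RefSeq (GRCh38.p14), which named 19223 of 19266 identifiers. Expected counts were rounded and analysed in R 4.3.3 with edgeR 4.0.16: filterByExpr kept 13580 genes, TMM scaling, 1 quasi-likelihood fit of all 9 libraries by group, and Benjamini-Hochberg adjustment at 0.05. The edgeR coefficient of variation between the tables of a sample, from the common dispersion and so beyond counting noise, was 2.33%. The SE is the absolute log2 fold change over the square root of F. The deposited TPM values were summed without a test. Alternatives used DESeq2 1.42.0 and limma 3.58.1 on log2 of FPKM with pseudocounts of 1 and 0.1. The code was tested on simulated data.

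Named were the 10 members, all tested genes listed with the family, and from each pathway list the 3 called genes with the largest absolute mean change. The members and lists were chosen with earlier results of these data known. The promoter motifs, gene pairs and ratios were chosen after the values were seen. One gene and a list tied to it are not reported here.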

Additional observations from a re-analysis of the deposited data

How the results depend on the processing

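The directions of all member changes against control, and between the hairpins, were the same under every alternative run (other scalings, filters, DESeq2, limma on FPKM, a fit of 2 groups, summed tables and the omission of single libraries). Of 270 member changes refitted without 1 library, 265 kept their side of the threshold. Against a fold change of 1.2, edgeR called 5460 genes for sh1 against control, 5257 for sh2 against control and 5310 for sh1 against sh2. The count of members called at 1.5-fold or more with sh2 was 1 to 2 over the omissions of single libraries. With FPKM in place of TPM, the summed level relative to control was 0.999 for BH3-only members with sh1 and 0.865 with sh2 (0.965 and 0.829 in TPM). It was 0.649 for pro-survival members with sh1 and 0.97 with sh2 (0.627 and 0.929 in TPM). For effectors with sh2 it was 1.14 (1.09 in TPM). In each library TPM and FPKM differ by a factor shared by all genes, so this gap is one of scale. With the table number as a replicate block, edgeR called 9431, 9295 and 9501 genes (9409, 9298 and 9477 without), and no member's call changed. The number stands only in table names. Deviations of same-numbered tables correlated at -0.04 to 0.165 and those of differently numbered tables at -0.109 to 0.043. Each table had its highest correlation with a table of its own number, although control library 2 and sh2 library 2 gave the -0.04. The other same-numbered pairs stood at 0.044 to 0.165, above every differently numbered pair. The tables were treated as sharing only a number, and whether it marks a shared step is not given. With 1 sample per group, the spread between cultures is unknown for every value.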
